A study of Mus musculus with 3 samples.

Results

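The neurexin genes Nrxn2 and Nrxn3, the neuroligin genes Nlgn1, Nlgn2 and Nlgn3, and the LRRTM genes Lrrtm1, Lrrtm2, Lrrtm3 and Lrrtm4 encode cell-surface proteins that organise synapses. These 9 genes were taken by name from a table of 47593 gene rows, and every one of them was found. RNA was sequenced in 3 libraries of primary neurons from the hippocampus of wild-type (WT) mice. All 3 form a single group, replicates 1 to 3, whose cells were kept in Neurobasal with 10% B27, a serum-free supplement, and 1% GlutaMAX at 5% CO2 and 37 °C and then received fresh medium with B27 and penicillin-streptomycin. The design text gives a treatment time of 24 h and also names neurons exposed to apoE particles. Libraries of that arm were not analysed here, so levels are described within the fresh-medium group and no treatment was compared. The labels state neither the age of the mice nor whether the 3 libraries came from separate cultures, so the spread between them, and every p-value below, may reflect technical variation alone.

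Neurexins sit in the presynaptic membrane and reach across the cleft to bind neuroligins and LRRTMs in the postsynaptic membrane, so that the release site and the receptor field are built opposite each other. Neuroligin 1 is known mainly from excitatory synapses, neuroligin 2 from inhibitory synapses, and neuroligin 3 from both. The LRRTMs are leucine-rich repeat proteins of excitatory synapses, several of which share the neurexin partner with neuroligins.

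Library depth was even, with 18780574, 18683963 and 18885652 reads recovered from the deposited values of replicates 1, 2 and 3, and 3 reads in a library corresponded to about 0.16 counts per 1000000 (CPM). Such floors cover counting error only. Replicate 2 stood somewhat apart from replicates 1 and 3. Pearson chi-square per gene was 3.82 between replicates 1 and 2 and 3.32 between replicates 2 and 3, against 2.22 between replicates 1 and 3. The labelled cell type was checked against its markers. All 10 pan-neuronal markers were detected, meaning at least 1 CPM in every library, and summed to between 7647 and 7686 CPM per library. Markers of excitatory neurons (7 of 7 detected, 1042 to 1075 CPM) and of inhibitory neurons (8 of 8, 1097 to 1127 CPM) were both present. Astrocyte markers were also detected in full (8 of 8, 1898 to 1923 CPM), led per kilobase by Slc1a3, a glutamate transporter gene, at 980 ± 9.44 CPM. Oligodendrocyte precursor markers reached 252 to 271 CPM with 5 of 6 detected, and mature oligodendrocyte markers 34.7 to 37.0 CPM with 3 of 6. Microglial markers summed to 5.32 to 7.49 CPM (2 of 8 detected) and endothelial markers to 5.03 to 5.32 CPM (1 of 5), and Cldn5 had no read. In such bulk RNA a gene carried by fewer cells and a gene with less RNA per cell cannot be told apart, and how much of each organiser's RNA came from astrocytes or precursor cells was not tested.

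Because the members of a family are related in sequence, the most similar gap-free stretch of 100 coding bases was located among the neurexins and among the neuroligins to show what separates their reads. The sequences below come from GENCODE M21 transcripts, run 5′ to 3′ on the coding strand, and carry in capitals the bases that differ within the family. In the neurexin stretch 86 of 100 bases were the same and 14 differed.
Nrxn2 (chromosome 19): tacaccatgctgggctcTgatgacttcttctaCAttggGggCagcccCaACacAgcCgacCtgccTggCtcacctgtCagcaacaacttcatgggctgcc
Nrxn3 (chromosome 12): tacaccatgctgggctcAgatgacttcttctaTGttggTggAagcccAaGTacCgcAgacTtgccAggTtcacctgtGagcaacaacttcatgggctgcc

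In the neuroligin stretch 75 bases were common to the 3 genes, and any pair differed at 16 to 19 positions.
Nlgn1 (chromosome 3): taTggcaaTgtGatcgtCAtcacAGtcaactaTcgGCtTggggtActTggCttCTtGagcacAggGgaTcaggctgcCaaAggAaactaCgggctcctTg
Nlgn2 (chromosome 11): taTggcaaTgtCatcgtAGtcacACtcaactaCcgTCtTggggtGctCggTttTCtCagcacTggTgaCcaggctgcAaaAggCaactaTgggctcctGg
Nlgn3 (chromosome X): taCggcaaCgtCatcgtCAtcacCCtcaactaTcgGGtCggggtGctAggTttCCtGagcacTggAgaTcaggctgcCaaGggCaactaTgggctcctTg

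Over whole coding sequences, members of one family were 68.0% to 75.8% identical at aligned bases, and the longest identical coding run was 11 to 23 bases in the 10 within-family pairs. None of the 36 pairs of members shared a word of 50 bases in any annotated transcript. Some exons were also shared with neighbouring genes. Of the exon bases of Nlgn3, 41.2% (3823 bases) also belonged to Gm21986, a transcript on the same strand with 7, 6 and 10 reads in replicates 1, 2 and 3. Lrrtm4 shared 25.1% of its exon bases (1543 bases) with Gm4409 on the opposite strand, which had 0, 0 and 1 read. Nlgn1 shared 9.16% with the antisense gene A830092H15Rik, which had 4, 10 and 8 reads. Nrxn2 shared 682 bases with Slc22a12 (36, 28 and 33 reads) and 207 bases with Gm14964 (22, 25 and 23 reads), both on the opposite strand, and Nrxn3 shared 439 bases with Gm37980 (1, 0 and 1 read). Neither the strand setting nor the handling of reads that lay over 2 genes is given in the sources used here, and how far it changes the values of these members was not tested.

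All 9 organiser genes were detected in every library. Summed over the 9, they held 990.7, 918.8 and 1001 CPM in replicates 1, 2 and 3, or 0.0970% of all reads on average. The 2 neurexin genes summed to 505 ± 26.6 CPM, the 3 neuroligin genes to 253.5 ± 11.96 CPM and the 4 LRRTM genes to 212 ± 6.78 CPM (SD, n = 3). Unlike these read shares, comparisons between genes below are made per kilobase of annotated exon, and they depend on which length is taken.

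Of the presynaptic pair, Nrxn2 lies at chr19:6418731-6544169 (GRCm38, plus strand) and had 398.1, 359.8 and 403.8 CPM in replicates 1, 2 and 3. Replicate 2 was the lowest, and the mean was 387 ± 23.9 CPM (SD, n = 3). Per kilobase Nrxn2 averaged 28.0 ± 1.73 CPM, higher than 86.5% of detected genes. Such shares per kilobase, here and below, cover those of the 13648 detected genes that had an annotated length. Nrxn3, spread over 1612060 bases at chr12:88722876-90334935 on the plus strand, had 121.9, 114.1 and 116.2 CPM, with little between the libraries, and averaged 117 ± 4.05 CPM. Its level of 9.31 ± 0.321 CPM per kilobase was higher than that of 61.0% of detected genes. Both genes use several promoters that give long and short proteins, the alpha and beta neurexins, and a gene-level value adds these together.

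Within each library, Nrxn2 exceeded Nrxn3 per kilobase by a log2 ratio of 1.59 ± 0.04 (SD, n = 3), a 3.01-fold difference seen in 3 of 3 libraries. This is the ratio of the deposited log2 values, whose spread is shrunken, and in recovered reads the SD of the same ratio was 0.07. The difference was thus many times the spread between libraries. A two-sided exact permutation test that flips signs gave p = 0.25, also after Benjamini-Hochberg adjustment over 16 pairs. This is the smallest p that 3 libraries allow, so no pair in this design can pass a threshold of 0.05, and the same p held for each of the 16 pairs. Among reads of the 2 neurexin genes, Nrxn2 made up 76.7% ± 0.87 and Nrxn3 23.3% ± 0.87.

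**Figure D1:**
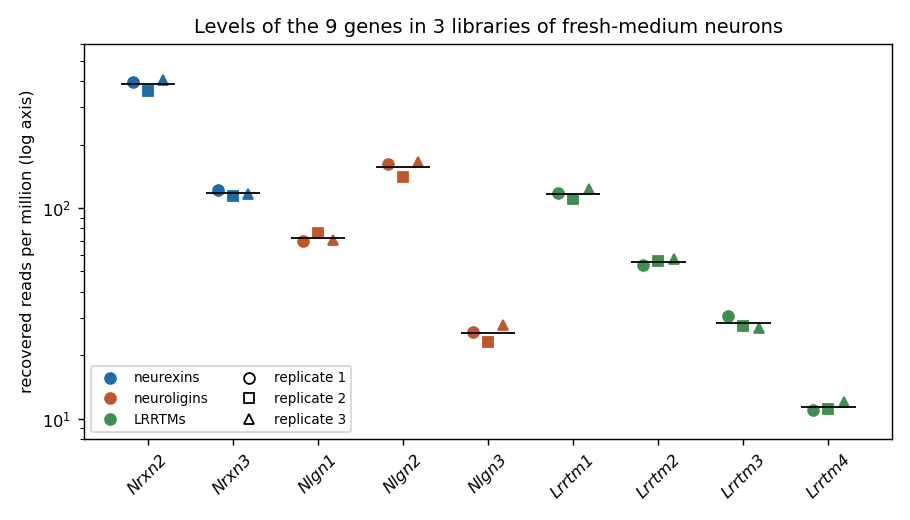
Level of each gene in each library, in CPM of recovered reads on a log axis, with replicates 1, 2 and 3 as circles, squares and triangles, colours for the families and a line at the mean. Within each gene the 3 libraries lie close together, from a 1.06-fold range for Lrrtm2 to a 1.21-fold range for Nlgn3, and replicate 2 is the lowest library for 5 of the 9 genes.

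Among the postsynaptic neuroligin genes, the one of inhibitory synapses had the highest level. Nlgn2 is a compact gene at chr11:69823122-69837784 on the minus strand and had 162, 140.8 and 164.5 CPM in replicates 1, 2 and 3, with replicate 2 again the lowest. Its mean was 156 ± 13.02 CPM, or 26.9 ± 2.25 CPM per kilobase, above 85.9% of detected genes. Nlgn1, at chr3:25426215-26332460 on the minus strand, went the other way between libraries, with 69.6, 76.2 and 70.5 CPM and replicate 2 the highest. It averaged 72.1 ± 3.60 CPM and 5.37 ± 0.268 CPM per kilobase, above 45.1% of detected genes. Nlgn3, on the X chromosome at chrX:101299168-101325963 on the plus strand, was the lowest of the 3. It had 25.8, 23.0 and 28.0 CPM, a mean of 25.6 ± 2.48 CPM and 2.76 ± 0.267 CPM per kilobase, above 29.0% of detected genes.

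Per kilobase, Nlgn1 lay below Nlgn2 by a log2 ratio of -2.32 ± 0.08, so that Nlgn2 was 5.01-fold higher. The SD of this ratio in recovered reads was 0.19, since the 2 genes shifted in opposite directions in replicate 2. The log2 ratio of Nlgn3 to Nlgn2 was -3.28 ± 0.03, with an SD of 0.05 in recovered reads, and Nlgn2 was 9.75-fold higher. The log2 ratio of Nlgn3 to Nlgn1 was -0.96 ± 0.05, with an SD of 0.21 in recovered reads. Each of these orders held in 3 of 3 libraries. The distance between Nlgn3 and Nlgn1 depended on the length used. With bases shared with another gene left out of every length and all reads kept, Nlgn3 became 4.70 and Nlgn1 5.91 CPM per kilobase. Their log2 ratio became -0.33. It was -1.03 with the longest transcript as the length and -1.49 with no length scaling. Without shared bases the log2 ratio of Nlgn3 to Nlgn2 was -2.52. Among reads of the 3 genes, Nlgn1 took 28.5% ± 2.79, Nlgn2 61.4% ± 2.37 and Nlgn3 10.1% ± 0.52. In levels per kilobase the share of Nlgn2 came to 76.7% ± 1.61.

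The 4 LRRTM genes covered the widest range of any family here, from the highest to the lowest level per kilobase of the 9 genes. Lrrtm1, at chr6:77242689-77257791 on the plus strand, had 118, 110.2 and 122.5 CPM in replicates 1, 2 and 3, lowest in replicate 2, with a mean of 117 ± 6.22 CPM. Its 38.5 ± 2.05 CPM per kilobase lay above 90.6% of detected genes. Lrrtm2, at chr18:35209003-35215024 on the minus strand, had 53.6, 56.1 and 57.0 CPM and averaged 55.6 ± 1.74 CPM, with no library standing out. Per kilobase it reached 9.23 ± 0.289 CPM, above 60.6% of detected genes.

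Lrrtm3, at chr10:63928472-64090277 on the minus strand, had 30.6, 27.5 and 26.8 CPM in replicates 1, 2 and 3 and was somewhat higher in replicate 1 than in the other two. It averaged 28.3 ± 1.99 CPM and 6.65 ± 0.469 CPM per kilobase, above 51.2% of detected genes. Lrrtm4, whose protein binds heparan sulfate on presynaptic partners, lies at chr6:80018877-80810143 on the plus strand. It had 10.97, 11.13 and 12.02 CPM, or 206, 208 and 227 reads, and averaged 11.4 ± 0.565 CPM. Its 1.85 ± 0.092 CPM per kilobase lay above 21.5% of detected genes, and with bases shared with Gm4409 left out of the length it was 2.47 CPM per kilobase.

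Lrrtm1 exceeded each of its relatives per kilobase in 3 of 3 libraries. The log2 ratio to Lrrtm1 was -2.06 ± 0.03 for Lrrtm2, -2.53 ± 0.04 for Lrrtm3 and -4.38 ± 0.03 for Lrrtm4, with SDs of 0.09, 0.13 and 0.06 in recovered reads. The last of these made Lrrtm1 20.8-fold higher than Lrrtm4. The gap between Lrrtm3 and Lrrtm2 was the smallest in the family, a log2 ratio of -0.47 ± 0.03 with an SD of 0.15 in recovered reads. Lrrtm4 lay below Lrrtm2 by a log2 ratio of -2.32 ± 0.01 and below Lrrtm3 by -1.85 ± 0.02, with SDs of 0.04 and 0.16 in recovered reads. By reads, Lrrtm1 made up 55.1% ± 1.18 of the family, Lrrtm2 26.2% ± 1.12, Lrrtm3 13.3% ± 1.02 and Lrrtm4 5.36% ± 0.19.

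**Figure D2:**
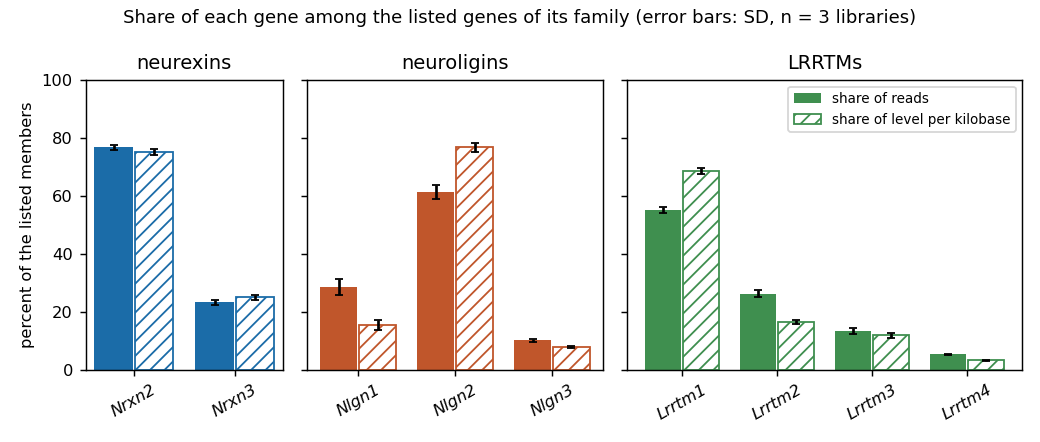
Share of each gene among the listed genes of its family, in percent, from reads (filled bars) and from levels per kilobase (hatched bars), as means with SD over 3 libraries. One gene holds most of each family by either measure: Nrxn2 with 76.7% and 75.0%, Nlgn2 with 61.4% and 76.7%, and Lrrtm1 with 55.1% and 68.5%.

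Set in order per kilobase, Lrrtm1 was followed by Nrxn2, Nlgn2, Nrxn3, Lrrtm2, Lrrtm3, Nlgn1, Nlgn3 and Lrrtm4. Neighbours were compared by their log2 ratio within a library, in recovered reads. Nrxn3 and Lrrtm2 could not be ordered, with a ratio of 0.01 ± 0.09 and Nrxn3 higher in 1 of 3 libraries. Nrxn2 and Nlgn2 differed by 0.06 ± 0.03, and Lrrtm3 and Nlgn1 by 0.31 ± 0.15, gaps of about 1.81 and 2.09 SD in the same direction in 3 of 3 libraries. The other neighbours lay between 3.26 and 19.2 SD apart. With the longest transcript as the length, Nrxn2 became 58.1 CPM per kilobase and passed Lrrtm1 at 39.5, Nrxn3 became 14.8, and the order of the other 7 genes stayed as it was.

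**Figure D3:**
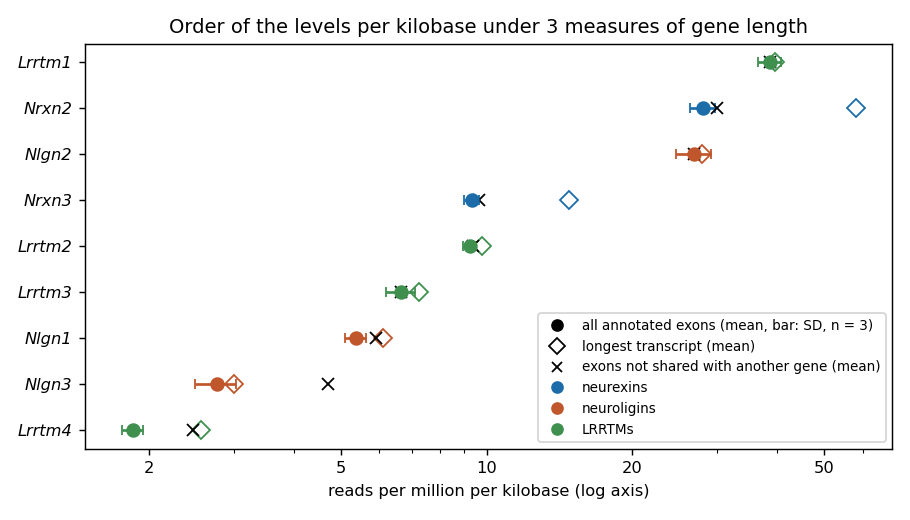
Level of each gene per kilobase on a log axis, from highest (top) to lowest. Filled points with SD bars over 3 libraries use the length of all annotated exons. Diamonds are means with the longest transcript as the length. Crosses are means with all reads kept and bases shared with another gene left out of the length. The diamonds move Nrxn2 to 58.1 and the cross moves Nlgn3 to 4.70, while most other genes stay near their filled point.

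Between families, levels per kilobase were summed over the genes listed. The neurexin pair lay above the neuroligins by a log2 ratio of 0.09 ± 0.004, with an SD of 0.02 in recovered reads. The neuroligins lay below the LRRTMs by a log2 ratio of -0.68 ± 0.02, and the neurexins below the LRRTMs by -0.59 ± 0.02. These orders held in 3 of 3 libraries, yet they depended on the length and on summing. With the longest transcript as the length, the ratio of neurexins to neuroligins became 0.98 and that of neurexins to LRRTMs became 0.30, the opposite direction. With no length scaling the ratio of neuroligins to LRRTMs also turned, to 0.26, and that of neurexins to LRRTMs to 1.25. A mean of the members' log2 levels does not grow with the number of members. On that measure the ratio of neurexins to LRRTMs was 0.99 and that of neurexins to neuroligins 1.13. The ratio of neuroligins to LRRTMs kept its direction but shrank to -0.14.

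Lrrtm1, Lrrtm2 and Lrrtm3 each lie inside an alpha-catenin gene and on its opposite strand. Alpha-catenins tie cadherins to the actin cytoskeleton. Lrrtm1 had 38.5 ± 2.05 CPM per kilobase, against 28.1 ± 0.104 for its host Ctnna2, the form typical of neurons, and the log2 ratio was 0.46 ± 0.03 (SD of 0.07 in recovered reads). That direction reversed to -0.25 with the longest transcript as the length and to -0.74 with no length scaling. Lrrtm2 had 9.23 ± 0.289 CPM per kilobase, against 11.9 ± 0.306 for its host Ctnna1, with which it shared 95 exon bases. Their log2 ratio was -0.37 ± 0.02 (SD of 0.07 in recovered reads) and became -1.07 with the longest transcript as the length. Lrrtm3 had 574, 513 and 507 reads in replicates 1, 2 and 3, against only 8, 8 and 7 reads for its host Ctnna3. The log2 ratio of Lrrtm3 to Ctnna3 was 6.88 ± 0.02, with an SD of 0.10 in recovered reads, and became 3.39 when 5 CPM was added to each level.

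The spread between libraries was next set against counting error, with a Pearson chi-square test on the recovered reads of 15131 genes and Benjamini-Hochberg adjustment over all of them. Nrxn2 (adjusted p = 2.82e-10), Nlgn2 (adjusted p = 1.92e-07) and Lrrtm1 (adjusted p = 0.0272) varied beyond counting error, and the other 6 genes did not pass. Of all genes tested, 8.62% passed. The share was 22.1% among genes averaging at least 1000 reads, a class that held 6 of the 9 genes and all 3 that passed. Against the usual spread of genes of like abundance, taken from the dispersion trend, 0 of 9 passed by the same chi-square test, where 0.317% of all genes and 0.735% of those averaging at least 1000 reads did. The lowest adjusted p was 0.386, for Nlgn2. Without adjustment, Nlgn2 (chi-square p = 0.00528) and Nrxn2 (chi-square p = 0.0298) lay under 0.05, which makes 2 of the 9 genes against 6.14% of all genes.

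Without replicate 2, 0 of 9 genes passed against counting error, beside 2.2% of all genes, with adjusted p of 0.701 for Nrxn2, 0.830 for Nlgn2 and 0.629 for Lrrtm1. Without replicate 3, Lrrtm1 no longer passed (adjusted p = 0.204), leaving 2 of 9 against 5.49% of all genes. Without replicate 1, Nlgn3 passed as well (adjusted p = 0.0270), making 4 of 9 against 7.83% of all genes. Replicate 2 gave the lowest level for 5 of the 9 genes and the highest for 1, where it was lowest for 37.0% and highest for 34.3% of all genes tested. Replicate 3 gave the highest level for 6 of the 9 genes, against 34.4% of all genes tested. On the log2 scale replicate 2 lay below the mean of replicates 1 and 3 by -0.22 for Nlgn3, -0.21 for Nlgn2, -0.15 for Nrxn2 and -0.12 for Lrrtm1, and above it by 0.13 for Nlgn1.

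GC content moved with this shift across the transcriptome. In replicate 2 the median over genes was 0.06 in the quintile of genes with the least GC and -0.08 in the quintile with the most. Nrxn2 and Nlgn2 lie in the quintile of highest GC with 62.4% and 60.7%, and Nlgn1, Lrrtm2 and Lrrtm4 in the lowest with 38.9%, 38.4% and 38.4%. In addition, 8 of the 9 genes were lower in replicate 2 than the median of their own GC quintile, which splits genes evenly. Nlgn3, at 49.3% GC, had the lowest value beside a median of -0.01. The highest quintile spanned 55.5% to 75.5% GC, so its median need not match genes at the GC content of Nrxn2 or Nlgn2. Whether the 9 genes as a set fell beyond genes of like GC content was not tested. When size factors were fitted within bins of GC content and transcript length, an alternative added after the data were seen, Nlgn2 still passed (adjusted p = 0.0411), while Nrxn2 (adjusted p = 0.152) and Lrrtm1 (adjusted p = 0.275) did not. This left 1 of 9 genes, against 4.67% of all genes.

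**Figure D4:**
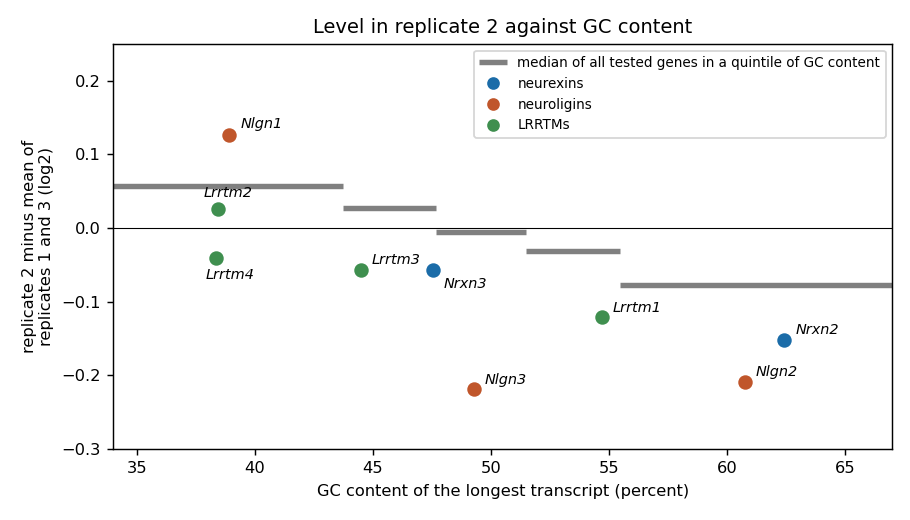
Difference on the log2 scale between replicate 2 and the mean of replicates 1 and 3, in recovered reads over size factors, against the GC content of each gene's longest transcript in percent. Grey lines give medians of all tested genes in quintiles of GC content, which run from 0.06 at low GC to -0.08 at high GC, and 8 of the 9 points lie below the line of their quintile.

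Partner proteins of the organisers were read from lists of related genes, ranked per kilobase. A list of 12 genes covered secreted proteins that bind neurexins and relatives of such proteins. Of the 12, 10 were detected, with a median of 5.38 CPM per kilobase. Nxph1 and Nxph3, genes of neurexophilins, led with 17.4 ± 0.332 and 16.6 ± 0.533 CPM per kilobase, followed by Cbln1, the cerebellin that links neurexins to glutamate delta receptors, with 10.3 ± 0.370. C1ql4, of the C1q-like group, had 1, 2 and 0 reads. In the chi-square test against counting error, 1 of 11 tested members of this list passed, where 8.62% of all genes did.

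The presynaptic organisers that act beside neurexins, the LAR-type receptor phosphatases, were all 3 detected: Ptprf at 28.4 ± 0.938, Ptprs at 24.4 ± 1.04 and Ptprd at 10.1 ± 0.189 CPM per kilobase. The level of Ptprf was close to that of Nrxn2 and the level of Ptprd to that of Nrxn3, though these differences were not tested. A list of 17 genes covered postsynaptic partners of these phosphatases and relatives of such partners. Of the 17, 16 were detected, with a median of 12.6 CPM per kilobase. Lrrc4b and Lrrc4, of the netrin-G ligand family, had 89.1 ± 5.88 and 20.6 ± 0.588 CPM per kilobase, and Lrfn4, of the SALM family, had 48.1 ± 2.97. Slitrk6 stayed below 1 CPM in every library with 18, 17 and 12 reads. Spread beyond counting error was called for 1 of 3 phosphatases and 5 of the 17 listed genes, against 8.62% of all genes. Among those averaging at least 1000 reads the counts were 1 of 3 and 4 of 10, against 22.1% of all such genes.

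All 10 other surface partners and regulators were detected, with a median of 16.2 CPM per kilobase. Clstn1, a calsyntenin gene, was the highest at 146 ± 9.48 CPM per kilobase. Igsf21, whose protein binds neurexin 2 at inhibitory synapses, had 41.0 ± 2.88, and Clstn3, whose protein binds neurexins, had 40.8 ± 1.59 CPM per kilobase. Of this list 3 of 10 were called in the test against counting error, all of them among the 7 that averaged at least 1000 reads, a class in which 22.1% of all genes were called.

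Inside the presynaptic terminal, all 6 genes for cytosolic neurexin partners were detected, with a median of 32.1 CPM per kilobase. Lin7c, Apba2 and Cask led this list with 62.9 ± 1.45, 58.5 ± 1.48 and 32.8 ± 0.913 CPM per kilobase. On the postsynaptic side 11 of 11 scaffold genes were detected, with a median of 13.5 CPM per kilobase. Gphn, which encodes gephyrin, the scaffold of inhibitory synapses and a partner of neuroligin 2, led with 37.7 ± 0.956 CPM per kilobase. Dlg3 and Dlg4, which encode the excitatory scaffolds SAP102 and PSD-95, followed with 24.0 ± 0.485 and 22.3 ± 1.41. Calls against counting error numbered 2 of 6 cytosolic partners and 4 of 11 scaffolds. Of these, 5 and 11 genes averaged at least 1000 reads and held every call, beside 22.1% of all genes at that depth.

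The RNA-binding proteins that regulate neurexin splicing were detected in 3 of 3 cases. Khdrbs3 had 47.0 ± 0.965 CPM per kilobase and Khdrbs1 28.5 ± 1.15, while Khdrbs2 had 1.61 ± 0.133. None of the 3 was called against counting error, where 8.62% of all genes tested were. Against the dispersion trend no gene of these 7 partner lists was called, where only 0.317% of all genes tested were. The deposited values are per gene, so splice forms of the neurexins were not measured.

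**Figure D5:**
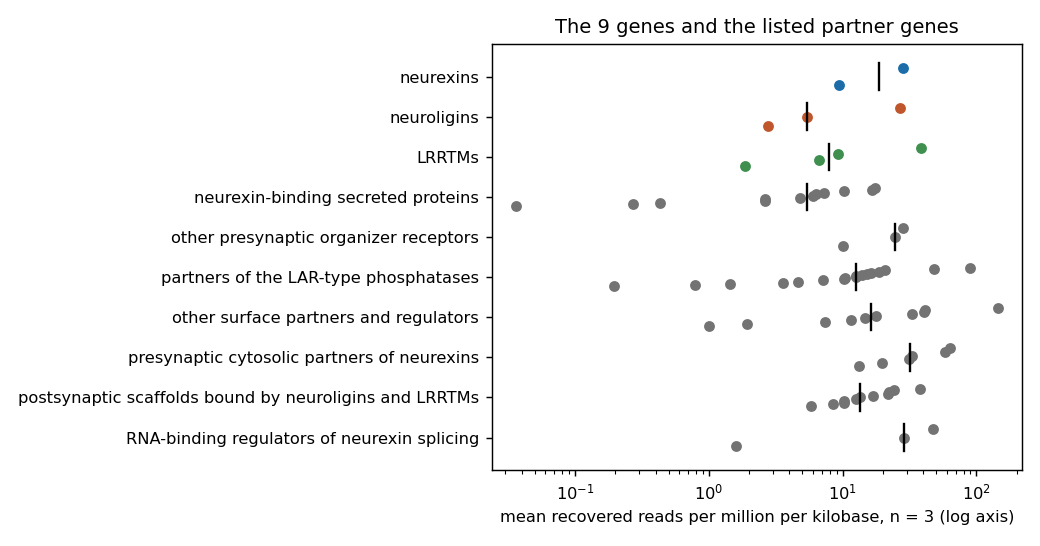
Mean level per kilobase over 3 libraries, on a log axis, for the 9 organiser genes (colours) and the genes of 7 partner lists (grey), 1 point per gene with a line at each list's median. The 9 genes run from 1.85 for Lrrtm4 to 38.5 for Lrrtm1, inside the span of the partner genes, which reaches 146 for Clstn1.

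Start regions of 6 of the 9 genes, in 10 windows of 300 bases, could be matched to RefSeq on GRCm38.p6. The window of Nlgn2 had 68.7% GC and 26 CG dinucleotides, and that of Lrrtm1 had 40.7% GC and 7, where the median of 32851 windows was 52.7% GC and 7. The first window of Lrrtm4, the lowest gene, had 48.7% GC and 4 CG dinucleotides. The letters GGGCGG, searched on both strands, were found in the Nlgn2, Lrrtm1 and second Nrxn3 windows and in 35.7% of all windows. The letters TATAAA were found in the first Lrrtm4 window and in 13.6% of all windows. CACGTG and TGACGTCA, also searched on both strands, were in none of the 10 windows and in 7.15% and 1.79% of all windows.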

How the data were processed

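RNA of 3 libraries of fresh-medium neurons was sequenced on a DNBSEQ platform, per the labels' protocols. Deposited were log2 expression values per gene, made by the authors. The submitters' processing notes name FastQC, HISAT2, featureCounts, DESeq2 and the GRCm38 genome, with no version or setting. The deposited values behaved as a regularized log, which shrinks differences between libraries. Whole reads were recovered by inverting that transformation with 6 fitted parameters, a step added after the data were seen. Within 0.1 of a whole number lay 99.9% of 67797 values, and the refit matched the deposited values within 0.001 for 100% of genes. Levels in CPM, the ratios of neighbours in the order and the shifts of replicate 2 come from these reads. Ratios of gene pairs and families come from the deposited log2 values, unless recovered reads are named.

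Lengths, coordinates and GC content came from GENCODE M21. Gene pairs and families were compared by log2 ratios per kilobase and an exact permutation test of their signs (two-sided), adjusted over 13 gene and 3 family pairs. Variation between libraries was tested by Pearson chi-square (2 degrees of freedom) on the recovered reads, for genes averaging at least 10 reads, with median-of-ratios size factors. Read recovery and the test of variation against the dispersion trend were tested on simulated data, and the other steps were not. Python 3.11.15, NumPy 2.4.6, SciPy 1.17.1, pandas 2.3.3 and Biopython 1.88 were used. The members, gene lists and pairs were chosen with earlier results of these data known. Named genes were the 9 members, the catenin hosts, genes with shared exons, the 3 highest genes per kilobase of each partner list, and members of those lists under 1 CPM in every library. Alternatives were another or no length, added pseudocounts, recovered reads, other filters and size factors, and leaving out each library. A coding stretch of the LRRTM genes is not reported here.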

Additional observations from a re-analysis of the deposited data

How the results depend on the processing

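No paired analysis was possible because the 3 libraries form a single group. Under other scalings with all 3 libraries kept, the levels of the 9 genes moved by less than the spread between libraries in 18 of 18 cases. Leaving out 1 of 3 libraries cannot move a mean by more than that spread, so it was not counted. The scalings that were counted start from the same deposited values in libraries of even depth, so they too could hardly move a mean. Of 114 alternatives for gene pairs, 112 kept the direction, and the exceptions were for Lrrtm1 over Ctnna2, whose log2 ratio of 0.46 became -0.74 with no length scaling and -0.25 with the longest transcript as the length. Of 30 for families, 26 kept it. Both counts include leaving out each library, which could not turn a direction that was the same in all 3 libraries. With no length scaling the log2 ratio of neuroligins over LRRTMs became 0.26 and that of neurexins over LRRTMs 1.25. The latter was also 0.30 with the longest transcript and 0.99 as a mean of the members' log2 levels. The 1304 genes that varied beyond counting error became 707 with size factors in bins of GC content and length, and 334 to 1187 when 1 library was left out, 334 being without replicate 2. The 48 beyond the dispersion trend became 73 with the binned size factors and 7 to 28 when 1 library was left out. Why these values moved was not tested, except that leaving out a library leaves 2 to compare. With 3 libraries of 1 group, depth limits the rarest gene, Lrrtm4, to 641 reads in all, and no exact p below 0.25 can be reached for a ratio.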
